A study of Mus musculus with 15 samples.

Results

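The sarcomere and excitation-contraction genes are 47 genes whose products build the contractile apparatus of striated muscle, couple the membrane signal to calcium release, or supply energy to contraction. They were chosen by name, from the roles of their products, and all 47 were found among the 54232 genes of the deposited count table. The samples were secondary palates of mice labelled WT (wild type), the only genotype used here, dissected at 5 stages: E13.5, E14.5, E15.5 and E16.5, named for the embryonic day, and P0, the day of birth. Every stage had 3 libraries, and each of the 15 was made from palatal tissue pooled over 3 embryos, whose sex and litter the labels do not give. Tests therefore measure the variation from pool to pool. The secondary palate forms the roof of the mouth, and skeletal muscle develops in its posterior part, the soft palate.

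Striated muscle contracts when myosin of the thick filament pulls on actin of the thin filament. Calcium released from the sarcoplasmic reticulum through the ryanodine receptor binds troponin C and frees the thin filament for this pull. Several of the proteins exist as fast-fibre, slow-fibre and fetal or cardiac isoforms encoded by separate genes, and embryonic skeletal muscle is known to use slow and cardiac forms together with fast forms before the adult set is established. In bulk tissue, a change in the number of muscle cells and a change in the RNA of each muscle cell cannot be told apart.

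Levels are in CPM, counts scaled to a library total of 1e6 with the TMM (trimmed mean of M values) factors of edgeR. Libraries held 21.5 to 69.0 M counts (M, 1e6), at which the detection floor of 3 counts lay between 0.0435 and 0.140 CPM before scaling. Floors cover counting error only. A gene was called where edgeR's quasi-likelihood F test gave a Benjamini-Hochberg adjusted p under 0.05 over the 22151 genes tested, and all 47 members passed the filter on low counts. The libraries of a stage overlap with those of another unless every library of one lies above every library of the other.

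The 47 genes together held a larger share of all counts at the later stages. They held 0.0513, 0.0604 and 0.0935% of counts in the 3 libraries of E13.5 (in the order of their replicate numbers, as in all lists of values below), and 0.0451, 0.0639 and 0.223% at E14.5. The share was 0.827, 0.481 and 0.332% at E15.5, 5.24, 2.78 and 2.13% at E16.5, and 3.96, 5.005 and 1.13% at P0. The libraries of E16.5 and of P0 all lay above those of E15.5, while P0 spanned a wider range than E16.5 and enclosed part of it. Replicate 3 of P0, the shallowest library, was the lowest of its stage for all 47 members, and replicate 3 of E16.5 was the lowest of its stage for all 47.

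**Figure D1:**
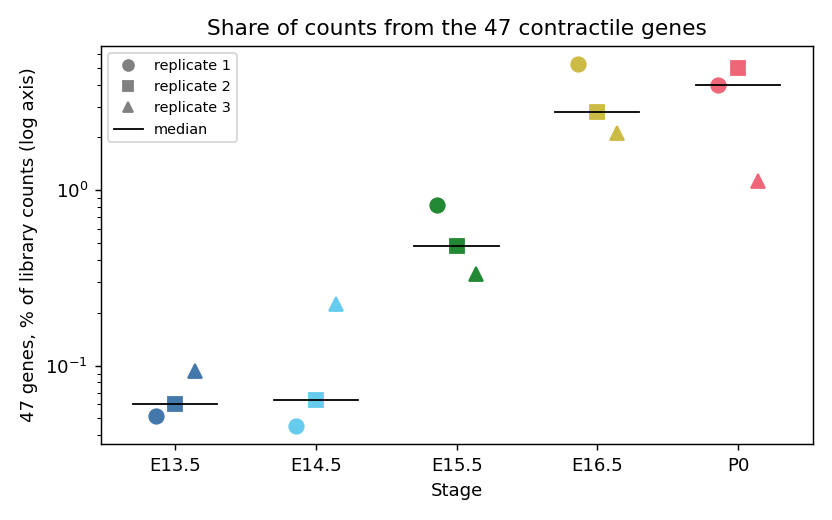
Share of each library's counts that came from the 47 genes, in percent on a log axis, by stage. Each symbol is 1 library, its shape gives the replicate number and its colour the stage, and the bar is the stage median. The E13.5 libraries lie between 0.0513 and 0.0935% and the E16.5 libraries between 2.13 and 5.24%.

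Among the members, the makeup of this pool of transcripts differed from stage to stage. Acta1, skeletal alpha-actin, accounted for 6.44% of member counts at E13.5 and 22.4% at P0 (means of 3 libraries). Actc1, cardiac alpha-actin, which is also the main sarcomeric actin of early skeletal muscle, went from 17.8 to 5.11%. The 11 genes classed as fast isoforms held 17.01, 18.97 and 18.3% of member counts at E13.5 and 35.98, 34.99 and 34.1% at P0. The 7 classed as slow or cardiac held 14.02, 14.6 and 15.8% at E13.5 and 4.29, 3.76 and 6.81% at P0. The fast share was higher and the slow share lower at P0 in every library. These are shares of fragments, which depend on gene length as well as on the number of transcripts.

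All 47 members rose between E13.5 and P0. Of all genes tested, 56.6% were called in that contrast, 29.8% higher and 26.8% lower at P0. The members' median log2 fold change was 6.25, against 0.03 over all genes tested, and ranged from 2.46 for Tnnc1 to 11.31 for Xirp2. In all 47 the libraries did not overlap, as in 30.2% of all genes in that direction and 28.9% in the other. Over the 5 stages together edgeR also called all 47, where it called 59.1% of all genes. The first count was the same with each of the 6 libraries of its contrast left out in turn, and the second with each of the 15. Those fits called 46.7 to 54.9% and 50.2 to 59% of all genes.

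The rise was unevenly divided over the 4 steps between neighbouring stages. The largest single step was E15.5 to E16.5 for 35 members and E14.5 to E15.5 for 12, and for none the first or the last. Which of these 2 steps was larger was not tested. The members' median log2 fold change was 2.19 from E14.5 to E15.5 and 2.81 from E15.5 to E16.5. The former was 3.175 without replicate 3 of E14.5, and 1.76 to 2.43 with any other library of the contrast left out. Taking each step as a percentage of a member's whole log2 change, the medians were 15.4% for E13.5 to E14.5, 37.8% for E14.5 to E15.5, 46.9% for E15.5 to E16.5 and 1.124% for E16.5 to P0. Smtnl1, which encodes a smoothelin-like regulator of contraction, made 79.3% of its change between E15.5 and E16.5. Tnnc1, slow and cardiac troponin C, made 57.7% of its change a step earlier and 20.8% between E15.5 and E16.5.

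**Figure D2:**
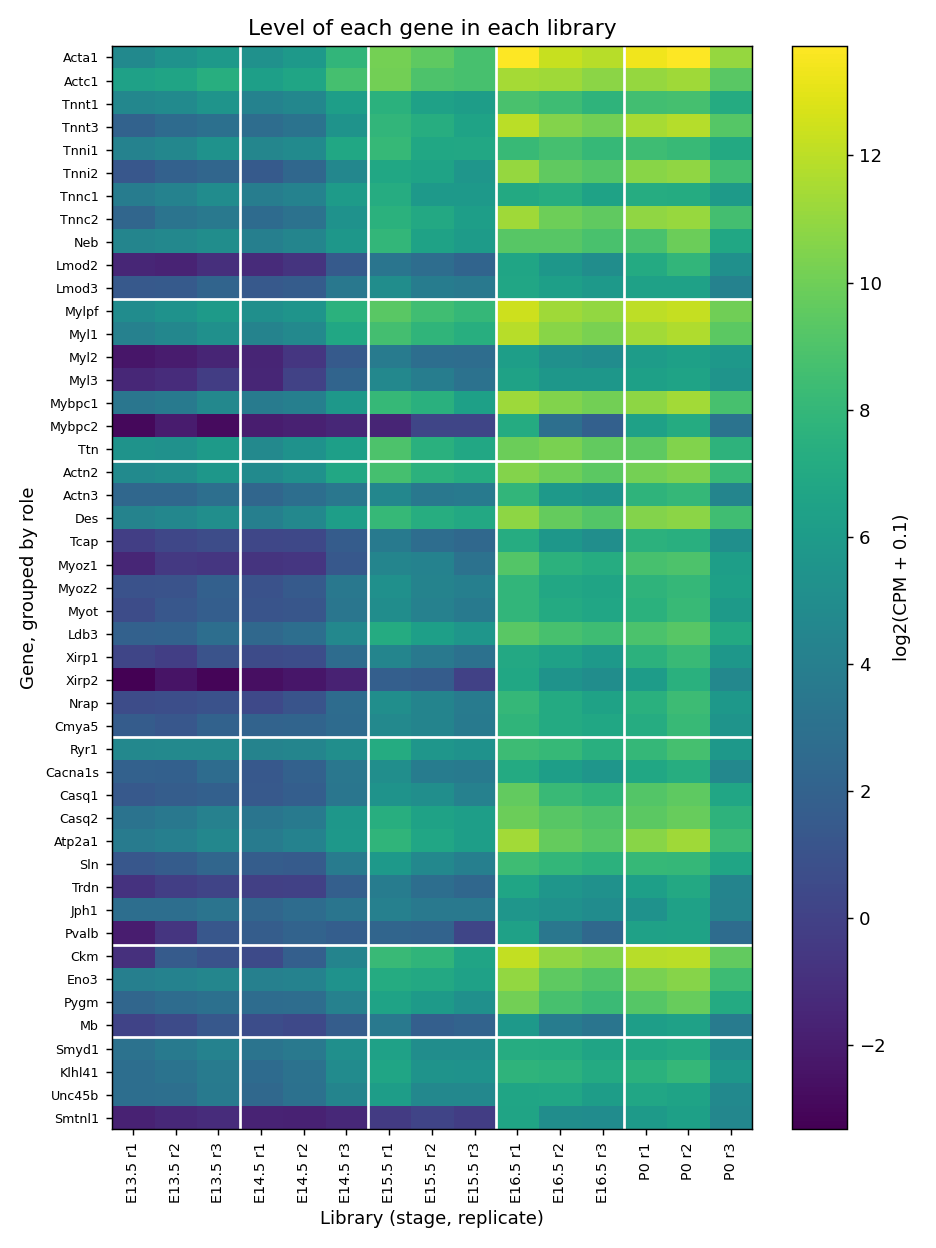
Level of the 47 genes in the 15 libraries, as log2(CPM + 0.1) on a colour scale, with white lines between stages and between the roles of the proteins. Most rows brighten in the libraries of E15.5 and again at E16.5, and the libraries P0 r3 and E14.5 r3 stand apart from the others of their stages in most rows.

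The 250 bases before the annotated start were examined because the members moved together. RefSeq promoters (build GRCm38.p6) matched 35 of the 47 members by symbol. The searched motifs were CAGCTG, an E-box of the kind bound by MyoD family factors, CATTCC, the M-CAT element, the MEF2 site and the CArG box of serum response factor, all on both strands, and TATAAA on the gene's strand only. At least 1 CAGCTG was present for 16 of the 35 members (45.7%), against 14.7% of all 27025 genes with a promoter. The MEF2 site was present for 6 (17.1%, against 3.42%), the CArG box for 4 (11.4%, against 1.62%), CATTCC for 7 of the 35 (against 14.4% of all genes) and TATAAA for 2 (5.71%, against 8.94%). A match describes letters in this window and does not show binding.

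The promoters below belong to members on which the results turn, namely the adult and fetal actins, the creatine kinase, a fast and a slow light chain, slow troponin T, the member with the largest rise, and 1 member that holds both CAGCTG and the MEF2 site. Each runs 5′ to 3′ on the strand of the gene, with the searched motifs in capitals.
Acta1 promoter, chr8:123894776-123895025, minus strand: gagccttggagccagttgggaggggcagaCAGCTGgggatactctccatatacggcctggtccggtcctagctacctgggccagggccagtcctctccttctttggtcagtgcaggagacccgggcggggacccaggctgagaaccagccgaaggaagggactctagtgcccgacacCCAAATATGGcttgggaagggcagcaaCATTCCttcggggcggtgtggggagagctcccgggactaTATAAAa
Actc1 promoter, chr2:114052876-114053125, minus strand: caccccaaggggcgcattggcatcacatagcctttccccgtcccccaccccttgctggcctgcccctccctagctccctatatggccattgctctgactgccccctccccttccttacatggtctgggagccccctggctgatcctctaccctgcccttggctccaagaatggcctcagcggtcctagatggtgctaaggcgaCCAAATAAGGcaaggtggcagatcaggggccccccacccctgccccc
Ckm promoter, chr7:19410844-19411093, plus strand: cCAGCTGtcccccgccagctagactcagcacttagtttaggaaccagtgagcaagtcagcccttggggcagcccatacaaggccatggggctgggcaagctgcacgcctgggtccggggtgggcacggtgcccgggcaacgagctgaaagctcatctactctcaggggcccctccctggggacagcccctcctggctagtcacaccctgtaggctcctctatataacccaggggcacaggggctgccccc
Mylpf promoter, chr7:127211358-127211607, plus strand: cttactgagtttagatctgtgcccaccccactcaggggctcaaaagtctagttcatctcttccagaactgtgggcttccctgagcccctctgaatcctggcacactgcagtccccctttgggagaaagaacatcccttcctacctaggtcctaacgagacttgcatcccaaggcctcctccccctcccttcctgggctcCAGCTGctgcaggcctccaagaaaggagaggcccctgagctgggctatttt
Myl3 promoter, chr9:110763428-110763677, plus strand: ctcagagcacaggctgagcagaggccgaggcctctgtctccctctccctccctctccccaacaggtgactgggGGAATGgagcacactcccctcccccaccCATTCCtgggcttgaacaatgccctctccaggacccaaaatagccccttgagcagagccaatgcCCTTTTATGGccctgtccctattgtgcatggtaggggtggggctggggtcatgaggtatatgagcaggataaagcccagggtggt
Tnnt1 promoter, chr7:4515976-4516225, minus strand: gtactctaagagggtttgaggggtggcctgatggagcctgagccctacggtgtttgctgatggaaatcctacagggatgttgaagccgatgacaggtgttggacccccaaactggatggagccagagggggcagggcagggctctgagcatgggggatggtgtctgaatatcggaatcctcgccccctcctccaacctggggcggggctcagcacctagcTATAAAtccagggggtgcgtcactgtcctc
Xirp2 promoter, chr2:67445752-67446001, plus strand: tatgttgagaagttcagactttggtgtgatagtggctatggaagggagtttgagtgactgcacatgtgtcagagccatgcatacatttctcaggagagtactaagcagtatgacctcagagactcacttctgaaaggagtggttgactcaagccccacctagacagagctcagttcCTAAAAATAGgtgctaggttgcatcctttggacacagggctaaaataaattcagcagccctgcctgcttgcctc
Klhl41 promoter, chr2:69669870-69670119, plus strand: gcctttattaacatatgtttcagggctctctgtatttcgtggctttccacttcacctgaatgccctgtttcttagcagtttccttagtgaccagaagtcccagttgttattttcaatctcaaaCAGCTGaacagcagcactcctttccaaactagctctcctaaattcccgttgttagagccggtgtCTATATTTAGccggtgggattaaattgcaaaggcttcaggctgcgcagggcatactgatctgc
The Acta1 window holds CAGCTG at -221 to -216, a CArG box at -73 to -64 and CATTCC at -46 to -41, counted back from the start site. The Actc1 and Myl3 windows share only the CArG box with it among the 4 motifs searched on both strands, apart from the CATTCC that Myl3 holds on each strand. The Xirp2 window holds a MEF2 site at -74 to -65, and the Klhl41 window holds one at -63 to -54 and CAGCTG at -127 to -122. The window of Smtnl1 holds none of the 5 motifs.

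The thin filament genes had the widest contrast between isoforms. Acta1 (chr8:123891769-123894751 on GRCm38, minus strand) measured 27.5, 42.0 and 57.0 CPM at E13.5, 38.7, 55.9 and 238 CPM at E14.5, 1166, 731 and 429 CPM at E15.5, 13531, 5028 and 3861 CPM at E16.5, and 10733, 13399 and 2112 CPM at P0. E14.5 overlapped E13.5, E15.5 lay wholly above E14.5 and E16.5 wholly above E15.5, and P0 overlapped E16.5. In edgeR the log2 fold change was 2.81 (SE 0.81, adjusted p = 0.0249) from E14.5 to E15.5 and 3.27 (SE 0.83, adjusted p = 0.0684) from E15.5 to E16.5, so that only the first of these steps passed. From E13.5 to P0 it was 7.70 (SE 1.02, adjusted p = 6.40e-05).

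Actc1 began above Acta1 and ended below it. It measured 85.3, 99.1 and 165 CPM at E13.5, 76.9, 105 and 419 CPM at E14.5, and 1070, 498 and 443 CPM at E15.5. It then measured 2745, 2501 and 1765 CPM at E16.5 and 2067, 2516 and 673 CPM at P0. Actc1 rose by 3.91 on the log2 scale from E13.5 to P0 (SE 0.70, edgeR adjusted p = 0.000504), and no step between neighbouring stages passed the test. Per kilobase of exon, the stage means were 72.03 CPM for Actc1 and 27.4 CPM for Acta1 at E13.5, and 1083 and 5695 CPM at P0.

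Within each library, the log2 ratio of Acta1 to Actc1 per kilobase was -1.56, -1.16 and -1.46 at E13.5 and -0.92, -0.84 and -0.74 at E14.5. It was 0.20, 0.63 and 0.03 at E15.5, 2.38, 1.08 and 1.20 at E16.5, and 2.45, 2.49 and 1.72 at P0. A ratio within a library does not depend on how much of the tissue is muscle relative to other cells, as long as muscle alone expresses both genes. The ratio crossed 0 between E14.5 and E15.5 in all libraries, and no library overlapped between neighbouring stages up to E16.5. From E13.5 to P0 the ratio became 12.3 times as large (exact permutation p = 0.1, adjusted 0.172 over 50 tests). With 3 libraries against 3, 0.1 is the smallest p that this 2-sided test can give, so no ratio could pass 0.05.

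The 3 troponin subunits, which together make the calcium switch of the thin filament, each had a fast gene that overtook its slow partner. Tnnt3, fast troponin T, which anchors the complex to tropomyosin, measured 3.93, 6.23 and 7.80 CPM at E13.5, 6.74, 9.07 and 42.5 CPM at E14.5, 240, 159 and 93.1 CPM at E15.5, 3931, 1520 and 1102 CPM at E16.5, and 2875, 3569 and 600.5 CPM at P0. Tnnt1, its slow partner, measured 23.6, 28.9 and 44.9 CPM at E13.5, 19.1, 23.5 and 76.0 CPM at E14.5, 192, 86.8 and 72.04 CPM at E15.5, 459, 343 and 215 CPM at E16.5, and 381, 415 and 142 CPM at P0. At E13.5 every library held more Tnnt1 than Tnnt3, and from E15.5 on every library held more Tnnt3. Tnnt3 rose by 8.62 on the log2 scale from E13.5 to P0 (SE 1.05, edgeR adjusted p = 3.73e-05), and Tnnt1 rose by 3.27 (SE 0.62, adjusted p = 0.000759).

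The log2 ratio of Tnnt3 to Tnnt1 per kilobase was -2.11, -1.74 and -2.05 at E13.5 and 3.39, 3.58 and 2.56 at P0. The same ratio was -1.02, -0.90 and -0.36 at E14.5 and 0.80, 1.35 and 0.85 at E15.5, so it moved at each step up to E16.5 with no overlap between libraries. It was 35.3 times as large at P0 as at E13.5 (exact permutation p = 0.1).

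Troponin I, the inhibitory subunit, and troponin C, the calcium-binding subunit, followed a like course from E14.5 on. Tnni2, the fast form, measured 2.34, 3.90 and 4.90 CPM at E13.5, 112, 92.6 and 50.5 CPM at E15.5, and 1659, 1883 and 383 CPM at P0. Tnni1, the slow form, measured 18.95, 23.98 and 40.9 CPM at E13.5, 276, 112 and 118 CPM at E15.5, 281, 406 and 273 CPM at E16.5 and 351, 280 and 131 CPM at P0. Tnni1 levels thus overlapped among E15.5, E16.5 and P0, while those of Tnni2 did not overlap between E15.5 and E16.5, when Tnni2 was at 2046, 761 and 582 CPM. The ratio of Tnni2 to Tnni1 was 33.7 times as large at P0 as at E13.5, with no overlap (exact permutation p = 0.1).

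Tnnc2, fast troponin C, rose by 7.42 from E13.5 to P0 on the log2 scale (SE 1.00, edgeR adjusted p = 7.46e-05), from 4.93, 9.40 and 11.7 CPM to 1869, 2185 and 401 CPM. Tnnc1 had the smallest rise of all members, 2.46 (SE 0.60, edgeR adjusted p = 0.00399). It measured 14.3, 18.5 and 31.5 CPM at E13.5, 14.7, 18.8 and 64.8 CPM at E14.5, 149, 56.4 and 57.4 CPM at E15.5, 129, 156 and 89.6 CPM at E16.5, and 151, 140 and 63.0 CPM at P0. Its libraries overlapped between every 2 neighbouring stages, and none of these 4 steps passed the test. The ratio of Tnnc2 to Tnnc1 was 26.6 times as large at P0 as at E13.5 (exact permutation p = 0.1).

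**Figure D3:**
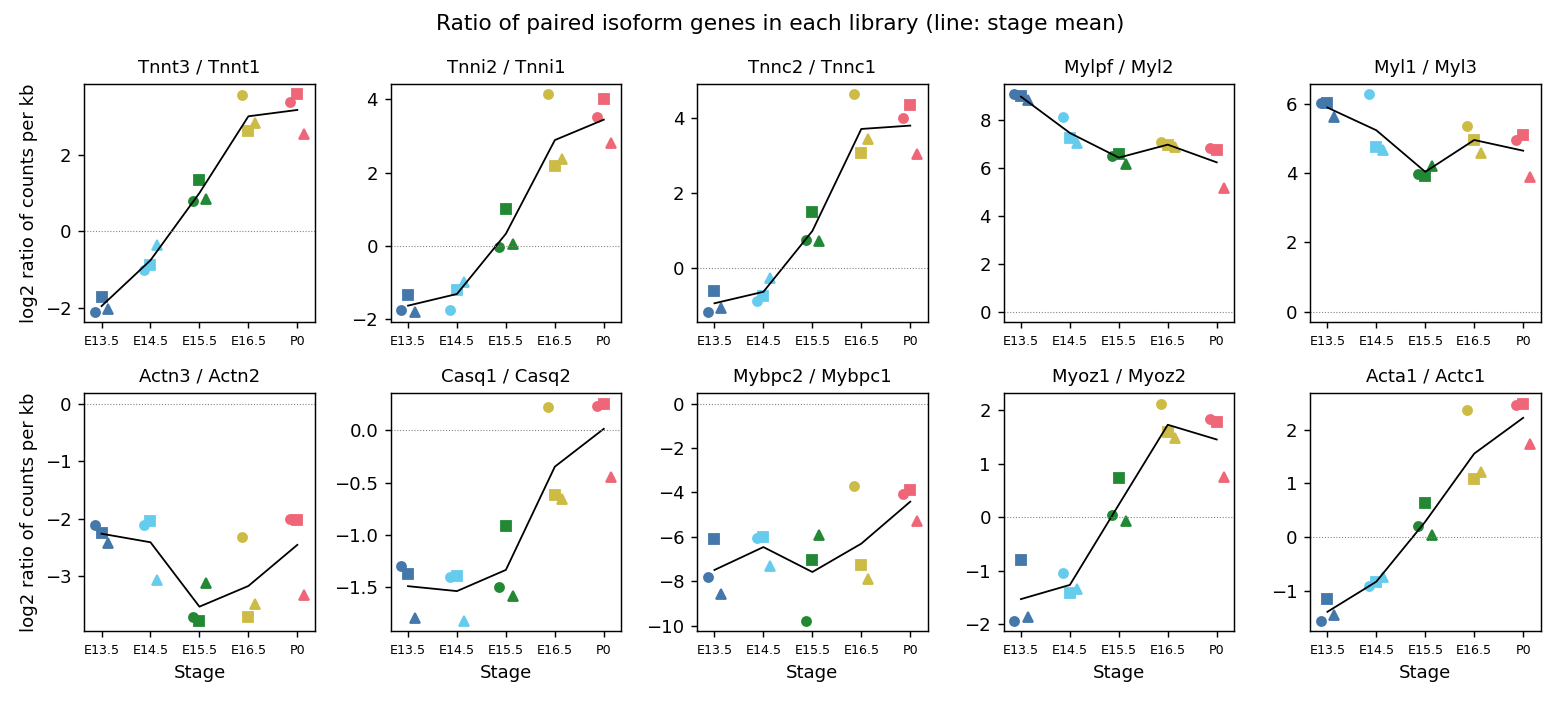
Log2 ratio of 10 pairs of isoform genes, computed from counts per kilobase of exon within each library, by stage. Each symbol is 1 library (circle, square and triangle for replicates 1, 2 and 3), the line joins stage means and the dotted line marks equal levels. The 3 troponin pairs and the actin pair climb from below 0 to above it, while Mylpf to Myl2 and Myl1 to Myl3 lie lower at P0 than at E13.5.

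The other 3 thin filament members set or cap filament length. Lmod2 and Lmod3, leiomodins that act at the pointed end, rose by 8.86 and 4.28 on the log2 scale from E13.5 to P0, and Neb, the giant nebulin along the filament, rose by 4.26. Lmod2 went from 0.258, 0.225 and 0.401 CPM at E13.5 to 136, 241 and 36.9 CPM at P0. Its step from E15.5 to E16.5, a log2 fold change that made 35.8% of the whole, did not pass the test. Over the 11 thin filament genes 6 were called higher at E15.5 against E14.5 (12.7% of all genes were) and 1 at E16.5 against E15.5 (1.03%).

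The light chains of the thick filament did not follow the troponins. Mylpf, the fast regulatory light chain, measured 31.3, 41.6 and 61.5 CPM at E13.5, 36.2, 45.6 and 192 CPM at E14.5, 660, 369 and 263 CPM at E15.5, 5526, 2494 and 1948 CPM at E16.5 and 4225, 4693 and 1022 CPM at P0. Myl2, its slow and ventricular partner, stood at 7, 10 and 16 counts at E13.5, or 0.1003, 0.141 and 0.238 CPM. Myl2 then measured 0.234, 0.545 and 2.70 CPM at E14.5, 13.3, 7.02 and 6.64 CPM at E15.5, 74.8, 36.8 and 30.6 CPM at E16.5, and 68.5, 81.1 and 53.2 CPM at P0. The fast form was the more abundant in every library, and the slow form had the larger fold change.

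The log2 fold change from E13.5 to P0 was 6.21 for Mylpf (SE 0.86, edgeR adjusted p = 8.66e-05) and 8.71 for Myl2 (SE 0.92, edgeR adjusted p = 1.47e-05). The log2 ratio of Mylpf to Myl2 per kilobase was 9.06, 9.01 and 8.85 at E13.5 and 6.82, 6.73 and 5.14 at P0, or 0.149 times its E13.5 value (exact permutation p = 0.1). It was 6.51, 6.59 and 6.18 at E15.5 and 7.08, 6.96 and 6.87 at E16.5, so it moved upward at that step, without overlap, in between 2 downward ones. Myl1, the fast essential light chain, and Myl3, the slow and ventricular one, gave a ratio whose stage means moved in the same directions. Libraries overlapped in this ratio between E13.5 and E14.5 and between E16.5 and P0. The log2 ratio of Myl1 to Myl3 was 6.01, 6.03 and 5.63 at E13.5, 3.97, 3.91 and 4.22 at E15.5, 5.35, 4.94 and 4.56 at E16.5 and 4.95, 5.10 and 3.88 at P0, which is 0.422 times the E13.5 value (exact permutation p = 0.1).

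Myosin-binding protein C, which tethers myosin heads, had a slow gene already present and a fast gene near the floor. Mybpc1, the slow form, measured 10.2, 12.7 and 24.7 CPM at E13.5, 269, 179 and 83.1 CPM at E15.5, 2381, 1426 and 1093 CPM at E16.5, and 1823, 2677 and 431 CPM at P0. Mybpc1 was not counted among the 7 slow or cardiac genes, and its share of member counts was 2.36% at E13.5 and 4.265% at P0, higher at the later stage, unlike the share of that class. Mybpc2, the fast form, had 2, 10 and 3 counts at E13.5 and 14, 71 and 75 counts at E15.5 (0.236, 1.06 and 1.08 CPM). At E16.5 Mybpc2 was at 144 CPM in replicate 1 and at 7.25 and 3.60 CPM in the others, and at P0 it was at 85.6, 144 and 8.80 CPM. The 40.0-fold range within E16.5 was the widest of any member at that stage.

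Mybpc2 rose by 10.07 on the log2 scale from E13.5 to P0 (SE 1.78, edgeR adjusted p = 0.000474), a value that rests on few counts at E13.5. Its step from E15.5 to E16.5 was 6.01 (SE 1.42, edgeR adjusted p = 0.0568) and did not pass. The log2 ratio of Mybpc2 to Mybpc1 was -3.72 in replicate 1 of E16.5 and -7.29 and -7.92 in replicates 2 and 3. Ttn, titin, the elastic spring between Z-disc and M-band, rose by 4.03 from E13.5 to P0. Of the 7 thick filament genes, 6 were called higher at E15.5 against E14.5 (12.7% of all genes were). None was called at E16.5 against E15.5 (1.03% of all genes higher), where 7 had an unadjusted p under 0.05 in edgeR.

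The Z-disc, costamere and intermediate filament genes were the group with the most calls at E15.5 against E14.5, 11 of 12. Of all genes, 12.7% were called higher in that contrast. Xirp2 (chr2:67446002-67526614, plus strand), which encodes an actin-binding Xin-repeat protein, had 0, 6 and 1 counts at E13.5 and 4, 7 and 15 counts at E14.5. It measured 3.44, 3.09 and 0.868 CPM at E15.5, 114, 42.2 and 32.4 CPM at E16.5 and 68.7, 179 and 24.6 CPM at P0. In edgeR its log2 fold change was 4.24 (SE 0.93, adjusted p = 0.00747) from E14.5 to E15.5 and 4.68 (SE 0.83, adjusted p = 0.0284) from E15.5 to E16.5. Its value from E13.5 to P0, 11.31 (SE 1.20, edgeR adjusted p = 1.58e-05), was the largest of the 47 and rests on 7 counts at E13.5.

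Myoz1, calsarcin of fast fibres, measured 0.258, 0.620 and 0.550 CPM at E13.5, 0.498, 0.560 and 2.47 CPM at E14.5, 21.3, 18.4 and 8.40 CPM at E15.5, 564, 200.5 and 150 CPM at E16.5, and 433, 506 and 76.4 CPM at P0. It rose by 3.76 from E14.5 to E15.5 (SE 0.83, edgeR adjusted p = 0.00780) and by 4.25 from E15.5 to E16.5 (SE 0.83, adjusted p = 0.0347). Myoz2, its slow and cardiac partner, rose by 6.25 from E13.5 to P0 against 9.47 for Myoz1. The ratio of Myoz1 to Myoz2 became 7.92 times as large without overlap between E13.5 and P0 (exact permutation p = 0.1), and crossed from -1.26 at E14.5 to 0.24 at E15.5 in the mean of the log2 ratio.

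Actn3, the alpha-actinin of fast fibres, and Actn2, that of all fibres and heart, were the one pair whose ratio overlapped between E13.5 and P0. This log2 ratio was -2.11, -2.25 and -2.42 at E13.5, -3.70, -3.77 and -3.12 at E15.5, -2.31, -3.71 and -3.49 at E16.5, and -2.01, -2.02 and -3.34 at P0. The first and last stages overlapped (exact permutation p = 1), and E15.5 lay below E14.5 without overlap. Actn3 itself measured 23.7, 11.2 and 13.1 CPM at E15.5, 234, 57.2 and 45.9 CPM at E16.5 and 213, 265 and 21.7 CPM at P0. It rose by 4.84 from E13.5 to P0 (SE 0.88, edgeR adjusted p = 0.000570).

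The remaining members of the Z-disc group all rose from E13.5 to P0. The log2 fold changes were 5.55 for Des, the intermediate filament protein desmin, 6.90 for Tcap, which caps titin, 6.25 for Myot (myotilin), 6.37 for Ldb3, a PDZ-LIM protein of the Z-disc, 7.14 for Xirp1, 6.83 for Nrap and 5.66 for Cmya5. Tcap and Cmya5 were also called at E16.5 against E15.5 in edgeR, by 3.28 (adjusted p = 0.0450) and 2.95 (adjusted p = 0.0305).

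Among the 9 genes of calcium release and uptake, 5 were called higher at E15.5 against E14.5, as were 12.7% of all genes. At E16.5 against E15.5 it was 2, Casq1 and Sln, where 1.03% of all genes were called higher. Ryr1, the release channel, measured 24.3, 25.9 and 26.4 CPM at E13.5, 19.6, 21.6 and 34.4 CPM at E14.5, 142, 48.7 and 40.6 CPM at E15.5, 336, 268 and 172 CPM at E16.5, and 258, 406 and 55.5 CPM at P0. Ryr1 had the narrowest spread of any member among the E13.5 libraries, 1.08-fold between the highest and the lowest. From E13.5 to P0 the log2 fold change was 3.23 for Ryr1, 4.43 for Cacna1s, the voltage sensor, and 2.65 for Jph1, the junctophilin that holds both membranes together. None of these 3 passed the test between E14.5 and E15.5 (edgeR adjusted p = 0.0657, 0.0682 and 0.116).

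The proteins of the calcium store and its pump had larger fold changes than these 3, a difference that was not tested. Casq1, calsequestrin of fast fibres, measured 2.55, 3.11 and 3.57 CPM at E13.5, 42.3, 34.0 and 17.6 CPM at E15.5, 801, 298 and 225 CPM at E16.5 and 579, 732 and 108 CPM at P0. It rose by 3.82 from E15.5 to E16.5 (SE 0.76, edgeR adjusted p = 0.0353). Casq2, the cardiac and slow form, was the more abundant per kilobase at E13.5 (stage means 4.59 against 1.58 CPM), and the means were 214 and 242 CPM at P0. The log2 ratio of Casq1 to Casq2 was -1.30, -1.37 and -1.80 at E13.5, -0.66 to 0.23 at E16.5, and 0.23, 0.26 and -0.45 at P0, so that at P0 it lay on both sides of 0.

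Atp2a1, the fast calcium pump, rose by 6.38 from E13.5 to P0, Sln (sarcolipin, its inhibitor) by 5.96, and Trdn, which links calsequestrin to the channel, by 6.61. Sln was also called at E16.5 against E15.5 (2.99, edgeR adjusted p = 0.0483). Pvalb, the calcium buffer parvalbumin of fast fibres, had a course of its own. It measured 0.158, 0.507 and 2.42 CPM at E13.5, 3.13, 4.13 and 3.29 CPM at E14.5, 4.52, 4.17 and 1.08 CPM at E15.5, 85.8, 10.7 and 5.31 CPM at E16.5, and 88.0, 90.3 and 6.27 CPM at P0. Its libraries overlapped between E14.5 and E15.5, with a log2 fold change of -0.11 (SE 1.125, edgeR adjusted p = 0.953), the only negative value among members at that step, and it turned to 0.013 with upper-quartile scaling. Pvalb also had the lowest correlation with the mean standardized profile of the 47 over the 15 libraries, Pearson r = 0.847, with 0.998 for Acta1.

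Ckm (chr7:19404776-19422841, plus strand), muscle creatine kinase, which regenerates ATP for myosin, had the largest rise at E15.5. It measured 0.416, 2.82 and 1.89 CPM at E13.5, 1.34, 3.53 and 20.8 CPM at E14.5, 306, 232 and 98.9 CPM at E15.5, 4541, 1871 and 1435 CPM at E16.5, and 3756, 3984 and 789 CPM at P0. The E15.5 libraries all lay above those of E14.5, and the edgeR log2 fold change was 4.63 (SE 1.07, adjusted p = 0.00929). From E15.5 to E16.5 it was 3.62 (SE 1.02, adjusted p = 0.0852), which did not pass. From E13.5 to P0 it was 10.70 (SE 1.39, adjusted p = 5.64e-05). Ckm made up 0.261% of member counts at E13.5 and 7.58% at P0.

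Of the other 3 energy genes, 2 passed the test at E16.5 against E15.5, where 1.03% of all genes were called higher. Eno3, muscle enolase, and Pygm, muscle glycogen phosphorylase, rose by 3.18 and 3.24 from E15.5 to E16.5 (edgeR adjusted p = 0.0344 and 0.0450). Mb, the oxygen carrier myoglobin, measured 12.02, 3.49 and 4.12 CPM at E15.5, 60.6, 13.9 and 9.59 CPM at E16.5 and 75.7, 85.2 and 13.5 CPM at P0. E16.5 overlapped E15.5 for Mb, and the step did not pass (log2 fold change 2.10, adjusted p = 0.165).

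Of the 4 assembly and regulatory genes, 3 were called higher at E15.5 against E14.5, as were 12.7% of all genes. At E16.5 against E15.5 it was 1, Smtnl1, where 1.03% of all genes were called higher. Unc45b, the myosin chaperone, Smyd1, a methyltransferase needed for myofibril assembly, and Klhl41, a kelch protein that stabilizes nebulin, rose by 3.05, 2.85 and 4.10 from E13.5 to P0. Their mean shares of member counts were lower at P0 than at E13.5, for example 0.265 against 1.99% for Smyd1. Smtnl1 (chr2:84811176-84822652, minus strand) measured 0.215, 0.296 and 0.342 CPM at E13.5, 0.218, 0.212 and 0.295 CPM at E14.5, 0.674, 1.03 and 0.752 CPM at E15.5, 100.3, 32.6 and 31.5 CPM at E16.5 and 63.5, 84.3 and 23.3 CPM at P0. It rose by 6.06 from E15.5 to E16.5 (SE 0.59, edgeR adjusted p = 0.00370), the largest change of a member at that step and the one with the smallest adjusted p.

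**Figure D4:**
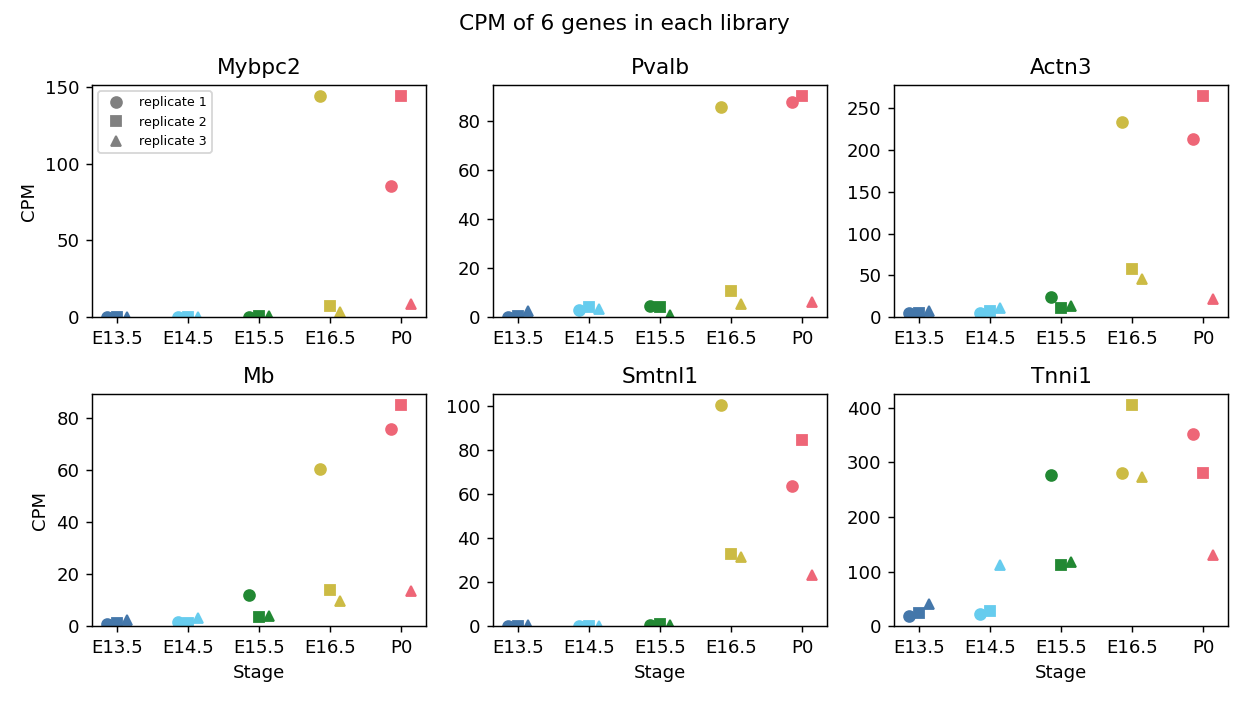
CPM of 6 genes in each library by stage, on linear axes that start at 0, with a circle, square and triangle for replicates 1, 2 and 3. Mybpc2, Pvalb, Actn3 and Mb are high in replicate 1 of E16.5 and replicates 1 and 2 of P0 and low in the other 3 libraries of these stages, while the Tnni1 libraries of E15.5, E16.5 and P0 overlap.

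Between E13.5 and E14.5 no member was called by edgeR, where 0.00903% of all genes were (0.00903% higher and 0% lower), and 5 had an unadjusted p under 0.05. DESeq2 called 1 member and 5.13% of all genes. The median log2 fold change was 0.84, with 43 of 47 above 0, and in 3 members (Mybpc2, Cmya5 and Pvalb) the libraries did not overlap and E14.5 was higher, against 15.5% of all genes higher and 13.7% lower. Replicate 3 of E14.5 was the highest of its stage for 46 members, and without it the median became -0.13.

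Between E14.5 and E15.5, 34 of 47 members were called higher and none lower, where 26.1% of all genes were called, 12.7% higher and 13.4% lower. The median was 2.19, and 42 were higher with libraries that did not overlap, against 24% of all genes higher and 27.2% lower. Of the 11 fast isoform genes 8 were called (median 2.32), and of the 7 slow or cardiac ones 4 (median 2.16). The difference between the classes was not tested. Without replicate 1 or replicate 2 of E14.5 the count was 5, near or below the 10.2 and 14.3% of all genes called in these fits. Without replicate 1 of E15.5 it was 13 (23.2% of all genes) and without replicate 2 of E15.5 it was 14 (13.1%), while Ckm, Xirp2 and Myoz1 stayed called in each. With only the 6 libraries of the contrast it was 19, where 32.3% of all genes were called.

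Between E15.5 and E16.5, 10 members were called higher and none lower, where 1.41% of all genes were called, 1.03% higher and 0.379% lower. The median was 2.81, 44 had an unadjusted p under 0.05 in edgeR and 44 had libraries that did not overlap, all higher, against 15.7% of all genes higher and 15.5% lower. The 11 fast genes had a median of 3.44 with 3 called (Tnnt3, Myoz1 and Casq1), and the 7 slow or cardiac genes had a median of 2.01 with none called and 5 at an unadjusted p under 0.05 in edgeR. The count was 0 without replicate 2 of E15.5 (37 at an unadjusted p under 0.05) and with only the 6 libraries of the contrast (45 at an unadjusted p under 0.05), fits in which edgeR called 0% of all genes. It was 1 without replicate 1 or 3 of E15.5 or replicate 1 of E16.5 and 2 without replicate 2 of E16.5, where at most 0.338% of all genes were called, and 39 in DESeq2, which called 9.69% of all genes. Over 13 alternatives, Smtnl1 passed in 11 (adjusted p up to 0.106), Xirp2 in 8 (up to 0.154), Myoz1 and Casq1 in 7 each (up to 0.160 and 0.170) and Tnnt3 in 4 (up to 0.207).

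Between E16.5 and P0 no member was called by edgeR or by DESeq2, and none had an unadjusted p under 0.05 in either. Of all genes edgeR called 0.352%, 0.19% higher and 0.163% lower, and DESeq2 called 3.35%. The median was 0.10 with 30 members above 0, and the libraries overlapped in all 47, while they did not in 6.23% of all genes (higher) and 5.39% (lower). Values ran from -0.47 for Smyd1 to 1.11 for Lmod2. With 3 pools a stage and the spread described below, this does not show equal levels.

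**Figure D5:**
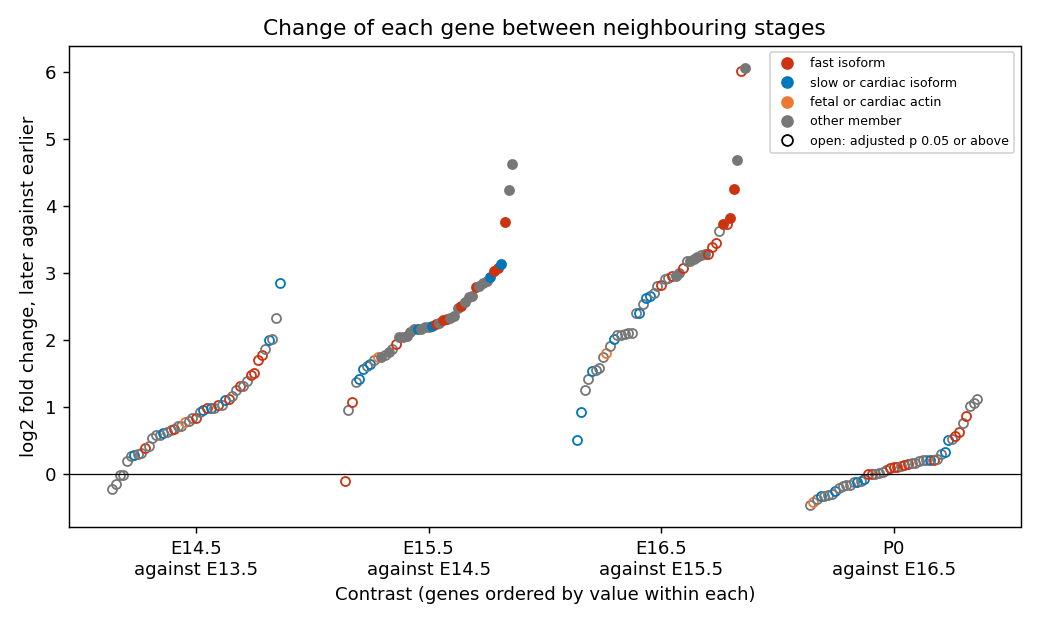
Log2 fold change of each of the 47 genes, later against earlier stage, for the 4 steps between neighbouring stages, ordered by value within a step. Filled symbols passed an adjusted p of 0.05 in edgeR, open ones did not, and colour gives the isoform class. All values are above 0 from E15.5 to E16.5, and those from E16.5 to P0 lie around 0 and are all open.

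Libraries of 1 stage differed widely. The median fold between the highest and the lowest library was, from the first stage to the last, 1.97, 4.35, 2.62, 2.64 and 5.22. At E16.5 and P0 the 3 widest were Mybpc2, Pvalb and another fast or oxygen-binding member (Mb at E16.5, Actn3 at P0), and the narrowest were Neb at 1.38-fold and Myl2 at 1.53-fold. For some pairs, ratios of fast to slow genes differed in the same libraries. The log2 ratio of Tnni2 to Tnni1 was 4.13 in replicate 1 of E16.5 and 2.17 and 2.36 in the others, and 3.51, 4.01 and 2.82 at P0. That of Mylpf to Myl2 was 7.08, 6.96 and 6.87 at E16.5 and 6.82, 6.73 and 5.14 at P0.

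Among markers of epithelium, keratins and Epcam ordered the libraries differently at E16.5. Krt5, a keratin of basal epithelium, was at 177, 599.6 and 1217 CPM at E16.5 and 344, 493 and 1580 CPM at P0, lowest where the members were highest at E16.5 and highest where they were lowest at both stages. Krt14, its partner keratin, had the same order of libraries at both stages. Epcam did not at E16.5, with 113, 58.8 and 70.4 CPM, highest where the members were highest. At P0 Epcam had the order of the keratins, with 75.0, 138 and 150 CPM. The 3 epithelial markers summed to 336 to 1615 CPM at E16.5 and 540 to 2203 CPM at P0. All 4 osteoblast markers rose from E14.5 to E15.5, when their sum went from 948 to 2099 CPM up to 13508 to 15873 CPM. Over the whole span from E13.5 to P0, 5 of 6 smooth muscle markers were called higher (median log2 fold change 2.35) and 3 of 4 palatal mesenchyme markers lower (median -1.11), with none called the other way. Of all genes, 29.8% were called higher and 26.8% lower in that contrast. The part of tissue makeup or dissection in the members' changes was not tested. The 4 Y-linked genes Ddx3y, Uty, Kdm5d and Eif2s3y summed to 0.134 to 0.323 CPM in the E16.5 libraries and to 0.343 to 174 CPM at E15.5 and 0.403 to 139 CPM at P0. Both neighbouring stages thus held a library about as low as those of E16.5 and another far above, and the part of sex makeup in these 2 steps was not tested.

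Several members are also heart genes, so defining cardiac markers were read in the same libraries. Nppa lay between 0 and 0.166 CPM, Nkx2-5 reached at most 1.29 CPM, Tbx5 1.31 CPM, Myl7 1.62 CPM and Myh6 8.83 CPM in any library. Myh6, Nkx2-5 and Myl7 were highest in replicate 1 of E16.5, the library with the largest member share, where Tbx5 was at 1.27 CPM against 0.055 and 0.049 CPM in the other libraries of that stage. The 7 cardiac markers summed to 15.5 to 35.7 CPM at P0, most of it Ryr2 and Tnni3, while Actc1 stood at 673 CPM or more. The gap was narrower at earlier stages. At E13.5 the sum was 7.87 to 13.7 CPM, with Actc1 at 85.3 CPM or more. In replicate 1 of E14.5 the sum was 31.9 CPM, with Actc1 at 76.9 CPM. Ryr2 made up 29.4 CPM of that sum, its highest level in any library. Of the 6 cardiac markers tested, 3 were called higher and 0 lower at P0 against E13.5 (29.8 and 26.8% of all genes). Acta1 and Ckm, listed as skeletal muscle markers, were above the floor of 3 counts in all 15 libraries. Both are members, so they give no separate reading of the type of muscle.

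Fixed lists held further genes of the pathway. Of 27 further contractile genes, 15 were called higher at E15.5 against E14.5, where 12.7% of all genes were. At P0 against E13.5, 24 were called higher and 1 lower (29.8 and 26.8% of all genes). The lower was Nebl (edgeR log2 fold change -0.67, adjusted p = 0.0460). Of 20 genes listed as further excitation-contraction genes 16 were higher at P0 against E13.5 (29.8% of all genes were). Among them were Scn4a, the muscle sodium channel (4.37, edgeR adjusted p = 0.000201), and Chrne, the adult subunit of the acetylcholine receptor (4.90, adjusted p = 0.000645). Mymk, a fusion gene, stood on this list and on that of myogenic regulators, and is counted in both. Chrne stayed low, at 0.0287, 0 and 0.0594 CPM at E13.5 and 0.943, 1.46 and 0.348 CPM at P0. Its fold change thus rests on few counts at E13.5. All 7 further muscle energy genes and all 6 myosin heavy chain genes were called higher at P0 against E13.5, where 29.8% of all genes were. The myosins differed by isoform, with Myh3, the embryonic form, at 3022, 3771 and 2221 CPM at E16.5 and 2797, 3372 and 753 CPM at P0, and Myh4, the fastest adult form, at 782, 3.93 and 2.94 CPM at E16.5 and 36.1, 130 and 1.44 CPM at P0.

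Myogenic regulators, the factors that drive these genes, and the fusion proteins were taken as a list of 9. Of these, 5 were called higher and 1 lower at P0 against E13.5, a share near that of all genes in this contrast (56.6%). Myf6 rose by 6.96 (SE 1.05, edgeR adjusted p = 0.000151) and Mymk, the fusion protein myomaker, by 3.29 (adjusted p = 0.00101), while Pax3, a factor of muscle progenitors that other cells also use, fell by 4.31 (adjusted p = 0.00185). Myod1 measured 9.26, 10.2 and 18.1 CPM at E13.5 and 20.996, 14.6 and 4.22 CPM at P0, with a log2 fold change of 0.09 (SE 0.60, adjusted p = 0.909). The E13.5 and P0 libraries of Myod1 overlapped, unlike those of all 47 members.

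The genes outside the set whose profile was most like the mean standardized profile of the 47, by Pearson r over the 15 libraries, were Pgam2 (0.998), Myh8 (0.998), Tpm2 (0.998), Trim54 (0.998), Dhrs7c (0.998), Jsrp1 (0.998), Mylf-ps (0.997), Sh3bgr (0.997), Apobec2 (0.997) and Adssl1 (0.997). The 15 libraries differ in stage, and the amount of muscle in them was not measured, so the values describe a likeness only. Mylf-ps is listed as a pseudogene, and reads shared with a parent gene could set its value. Among the pairs, the longest open reading frames were 61.3 to 75.7% identical, except 86.2% for Acta1 and Actc1, whose longest identical stretch was 29 bases. Per the file headers, the count command lacked an option for fragments with more than 1 mapping.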

How the data were processed

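Per the file headers, the authors made the deposited counts with featureCounts 2.0.1, counting read pairs on the reverse strand of GENCODE M18, with no option set for multiply mapped fragments or fragments shared by genes. Per the submitters' processing notes, cutadapt 3.4, HISAT2 2.2.1, SAMtools 1.12, Bowtie2 and the build mm10 were used. Symbols came from GENCODE M21 for 54079 genes, and 46 of the 47 members have the same position there. Members and lists were chosen with earlier results of these data known.

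Stages came from the labels, with 3 libraries each. Genes passed edgeR's filterByExpr (minimum count 10), and all 15 libraries were TMM-scaled and fitted together with edgeR 4.0.16 under R 4.3.3, using the quasi-likelihood F test for 5 contrasts. Each SE is the log2 fold change divided by the square root of F. The procedure was tested on simulated data. Isoform ratios used counts plus 0.5 per kilobase of exon, tested with 2-sided exact permutation tests (scipy 1.17.1) over 10 pairs and 5 contrasts. Positions are GRCm38, and promoters are RefSeq's. Named genes were Acta1, Ckm, both genes of each pair, the 3 largest rises and falls of each contrast among members called and without overlap, and the 10 genes most like the members' mean. Other members are named by role, and Smyd1, Myod1, Scn4a, Chrne, Nebl, Myf6, Mymk and Pax3 were singled out from the fixed lists after their values were seen. Alternatives were DESeq2 1.42.0, other scalings and filters, the replicate number as a block, the 6 libraries of a contrast only, and each library left out. Whether replicate numbers pair the samples was not tested, and the main fit did not use them.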

Additional observations from a re-analysis of the deposited data

How the results depend on the processing

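The counts of members called at P0 against E13.5 (47), at any stage (47) and at P0 against E16.5 (0) were the same under all alternatives run. The shares of all genes called in these fits were 31.7 to 61.4%, 32.2 to 68% and 0 to 3.35%. For E14.5 against E13.5 DESeq2 called 1 (5.13% of all genes) and edgeR 0 (0.00903%). For E15.5 against E14.5 the count was 34 (26.1% of all genes called). It was 17 with the replicate number as a block (26.5%) and 19 with only the 6 libraries of the contrast (32.3%). With 1 library left out it was 5 to 40 (10.2 to 25.4%). For E16.5 against E15.5 it was 10 (1.41% of all genes called) and 39 in DESeq2 (9.69%). With only the 6 libraries of the contrast it was 0 (0%), with 45 at an unadjusted p under 0.05. With 1 library left out it was 0 to 14 (0 to 2.19%). The cause was not tested. Same-numbered libraries of different stages had a mean correlation of 0.0594 over 30 pairs (-0.303 to 0.548). Differently numbered ones had a mean of -0.0321 over 60 pairs (-0.498 to 0.426). Of 15 libraries, 7 correlated best with one of their own number. Whether the numbers pair the samples was not tested. With the block the counts were 0 for E14.5 against E13.5 (0.609% of all genes called) and 7 for E16.5 against E15.5 (1.91%). They were 0 for P0 against E16.5 (0.158%) and 47 for P0 against E13.5 (56.9%). Pvalb at E15.5 against E14.5 (log2 fold change -0.11) turned to 0.013 with upper-quartile scaling, which moved the median of all genes in this contrast from 0.03 to 0.16, and lay between -0.43 and 0.30 with 1 library left out. Of the 50 log2 ratio differences, 10 turned sign with 1 library left out, all in contrasts where the libraries of the pair overlapped. At P0 against E16.5 the ranges were -0.036 to 0.476 for Tnnt3 to Tnnt1, -0.232 to 0.548 for Tnnc2 to Tnnc1, -0.536 to 0.071 for Myl1 to Myl3 and -0.466 to 0.080 for Myoz1 to Myoz2. For Actn3 to Actn2 they were -0.331 to 0.182 (E14.5 against E13.5), -0.070 to 0.630 (E16.5 against E15.5) and -0.415 to 0.246 (P0 against E13.5). For Casq1 to Casq2 they were -0.202 to 0.094 (E14.5 against E13.5) and -0.0069 to 0.330 (E15.5 against E14.5), and for Mybpc2 to Mybpc1 -0.015 to 2.11 (E16.5 against E15.5).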
